A study of Mus musculus with 5 samples.

Results

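The transcription factor genes described here carry Fox, Sox, Gata or Tbx names followed by a number and were measured in 5 tissues of the C57BL/6J mouse embryo. Loci of the deposited expression table were taken by that name pattern, which matched 48 loci. The locus Tbx6,Ypel3 was left out because it joins names, and a further 8 were left out by name: Foxa3, Foxf1a, Foxd3, Sox3, Sox9, Sox10, Sox17 and Tbx18. This left 39 members of 12375 named loci (14053 loci in all): 19 forkhead, 10 Sox, 5 Gata and 5 T-box. The rule uses names and no measured value. Foxl2os and Sox2ot, which the pattern takes as well, are RNAs named after a neighbouring gene and annotated as processed transcripts, not transcription factors. Sox2 and Sox2ot have the same interval in the table.

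Poly(A) RNA was sequenced from liver, ventral pancreas and dorsal pancreas of embryonic age E10.5, and from foregut and medial foregut of age E8.5, all of strain C57BL/6J, with no treatment or mutation named in the labels. The E10.5 tissues are called buds here, and ventral and dorsal pancreas the ventral and dorsal bud. By its title the study was about the choice between pancreatic and liver fate. There was 1 library per tissue, so no value has a replicate error, no difference was tested, and depth in reads is unknown. The sources used here do not say how many embryos each library holds or how the tissue was isolated. Levels are FPKM (fragments per kilobase of transcript, scaled to the mapped fragments of the library). Differences were taken between log2(FPKM + 1) values, so for genes of low level they are smaller than the change in FPKM. A member was called where this difference had a size of 2 or more (4 times in FPKM + 1) against each library of the comparison and the highest library of the comparison reached 5 FPKM. Rescaling the libraries to equal totals moved the median difference of all named loci by between -0.20 and 0.20, and median ratios moved it by between -0.12 and 0.19. In bulk tissue, fewer cells of a type and less RNA per cell cannot be told apart.

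Forkhead proteins bind DNA through a winged helix, Sox proteins through an HMG box that bends DNA, Gata proteins through zinc fingers that read the letters GATA, and T-box proteins through the T domain. Foxa, Gata4 and Gata6 proteins act early in gut endoderm and can open closed chromatin at liver genes. Gata4, Gata5, Tbx5 and Tbx20 also act in the heart, which forms beside the ventral foregut. Sox1, Sox2 and Sox21 are best known from the neural tube, and Sox2 also from anterior foregut endoderm.

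Markers of liver and pancreas were compared with the labels, and no list marks foregut as such. Summed over 11 of 12 hepatoblast markers found, the level was 7893 FPKM in liver, 2445 in the ventral bud, 575 in the dorsal bud, 142 in foregut and 154 in medial foregut. Dlk1 alone gave 2377 FPKM in liver, 1718 in the ventral bud, 485 in the dorsal bud, 57.4 in foregut and 66.7 in medial foregut. Of the 11 markers, 10 were higher in liver than in the ventral bud, all but Hhex. As many, 10, were higher in the ventral than in the dorsal bud. The 8 pancreatic progenitor markers found, of 10 listed, summed to 12.2 FPKM in liver, 182 in the ventral bud, 154 in the dorsal bud, 18.3 in foregut and 8.47 in medial foregut. The ventral pancreas library thus held hepatoblast markers besides those of pancreas. Cardiomyocyte markers, of which 10 of 13 were found, summed to 488 FPKM in liver, 28.2 in the ventral bud, 22.3 in the dorsal bud, 5319 in foregut and 9121 in medial foregut, and none of them was at 0 in any library. The tissues labelled foregut and medial foregut thus held RNA of heart muscle genes.

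The members varied more between libraries than the table as a whole. From lowest to highest library the median member spanned 1.97 on the log2 scale, against 0.79 over all named loci. A span of at least 2 was found in 18 of the 39 members (12.8% of all named loci), and of at least 1 in 29 (38.5% of all named loci). By family the median span was 3.41 in T-box, 2.21 in Gata, 2.19 in Sox and 1.35 in forkhead genes. The highest value lay in medial foregut for 15 members (15.1% of all named loci), in ventral and in dorsal pancreas for 7 each (27.5% and 22.2%), in liver for 5 (23.4%) and in foregut for 5 (11.8%). The lowest value lay in liver for 15 members (39.9% of all named loci), in dorsal pancreas for 9 (11.7%), in ventral pancreas for 7 (15.4%), in medial foregut for 6 (17.3%) and in foregut for 2 (15.7%). In 17 members both E8.5 libraries stood above all 3 E10.5 libraries (15.4% of all named loci), and in 6 members all 3 E10.5 libraries stood above both E8.5 libraries (20.6%). Of the 39 members, 31 reached 5 FPKM in some library and could be called. The 8 that did not were Foxd1, Foxf2, Foxj1, Foxj2, Foxl2os, Foxo6, Sox6 and Sox8. In 10 members the locus covers over 150% of the annotated span and may hold reads of its surroundings: Foxa1, Foxa2, Foxh1, Gata5, Sox2, Sox4, Sox8, Sox12, Sox21 and Tbx5.

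**Figure D1:**
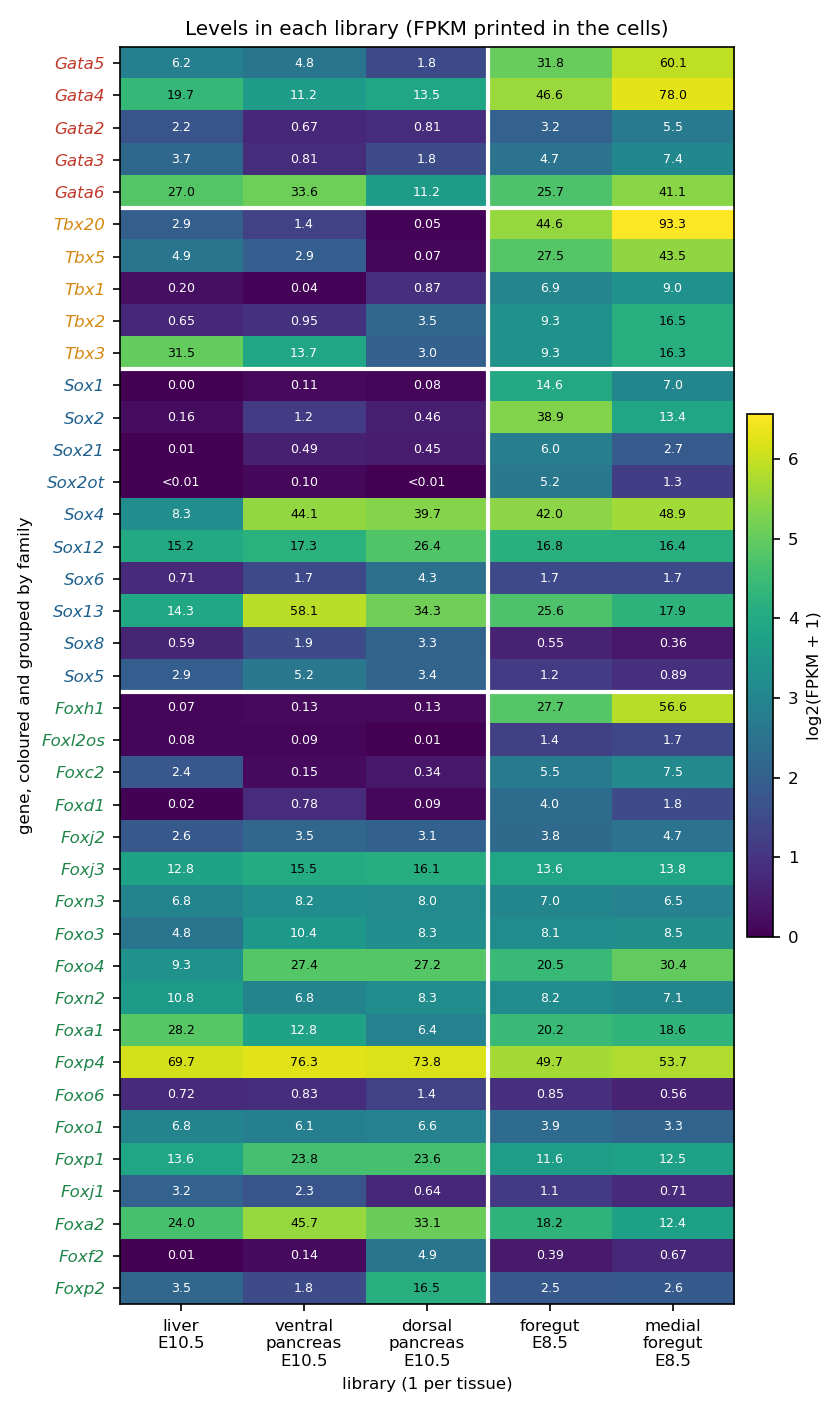
Levels of all 39 members in the 5 libraries, with the FPKM printed in each cell and log2(FPKM + 1) as colour; rows are grouped by family and, within a family, ordered by how far the lower E8.5 library stands above the highest E10.5 library. The rows of Tbx20, Tbx5, Gata4, Gata5 and Sox2 are brighter in the E8.5 columns on the right than in the E10.5 columns, whereas Tbx3 is brightest in liver. The row of Foxp4 is bright in all columns, from 49.7 FPKM in foregut to 76.3 FPKM in ventral pancreas.

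The comparison of each E10.5 bud with both E8.5 libraries asked which factors separate the organ buds from the earlier gut. The 3 comparisons share their E8.5 libraries, so what they have in common is not independent. In liver 9 members were lower than in both E8.5 libraries (2.22% of all named loci were lower) and 0 were higher (2.29%). In ventral pancreas 9 were lower (1.58% of all named loci) and 0 higher (1.96%). In dorsal pancreas 8 were lower (1.28%) and 1 was higher (1.45%). The median difference of the 39 members from foregut was -0.46 in liver, -0.23 in the ventral bud and -0.39 in the dorsal bud, against -0.09, 0.11 and 0.09 over all named loci. At a size of 1 in place of 2, 13 members were lower in liver (6.97% of all named loci), 14 in the ventral bud (3.81%) and 17 in the dorsal bud (3.2%). On the higher side 0 members were called in liver (5.24%), 3 in the ventral bud (6.38%), namely Foxa2, Sox13 and Sox5, and 1 in the dorsal bud (4.36%), namely Foxp2. At the size of 2, and depending on the bud, the lower members included 3 or 4 of the 5 T-box genes, 1 of the 5 Gata genes, 2 or 3 of the 10 Sox genes and 1 or 2 of the 19 forkhead genes.

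The member just past the size rule was Gata5 in liver at -2.20, Tbx2 in ventral pancreas at -2.41 and Tbx1 in dorsal pancreas at -2.08, and the member just short of it was Sox21 in liver at -1.87 and Gata4 in ventral and dorsal pancreas at -1.96 and -1.71. In the later comparisons the nearest short of it were Foxo4 at -1.46 between liver and pancreas, Tbx3 at 1.88 between ventral and dorsal pancreas and Sox2 at 1.47 between foregut and medial foregut.

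T-box genes spanned the widest range. Tbx20, a heart factor (chromosome 9, 24524304 to 24579691, minus strand, mm9), stood at 2.94 FPKM in liver, 1.45 in the ventral bud and 0.0511 in the dorsal bud, against 44.6 in foregut and 93.3 in medial foregut. It was the most abundant member of medial foregut, with 12.9% of the members' summed level, and all 3 buds lay below both E8.5 libraries. The difference was -3.53 in liver, -4.22 in the ventral bud and -5.44 in the dorsal bud from foregut, and -4.58, -5.27 and -6.49 from medial foregut. Tbx5, which acts in the heart and the forelimb (chromosome 5, 120246421 to 120335232, plus strand), stood at 4.87 FPKM in liver, 2.88 in the ventral bud and 0.0657 in the dorsal bud, against 27.5 in foregut and 43.5 in medial foregut. Both genes were called lower in all 3 buds, and among the buds both were highest in liver and lowest in dorsal pancreas. The locus of Tbx5 covers 169% of the annotated span, so it may hold reads from beside the gene.

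Tbx1, a factor of pharyngeal endoderm and mesoderm, stood at 0.205 FPKM in liver, 0.0378 in the ventral bud and 0.865 in the dorsal bud, against 6.89 in foregut and 8.96 in medial foregut. Tbx2, a repressor of chamber genes in the heart, stood at 0.645 FPKM in liver, 0.948 in the ventral bud and 3.46 in the dorsal bud, against 9.34 in foregut and 16.5 in medial foregut. Tbx1 was called lower in all 3 buds and Tbx2 in liver and ventral pancreas. In dorsal pancreas its difference of -1.21 from foregut did not reach the size rule, although that library too lay below both E8.5 libraries. Among the buds Tbx1 and Tbx2 had their highest value in dorsal pancreas, the bud in which Tbx5 and Tbx20 had their lowest.

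Tbx3, a repressor that liver progenitors need to grow out and to hold back biliary genes, was the exception among the T-box genes. It stood at 31.5 FPKM in liver, 13.7 in the ventral bud and 3.01 in the dorsal bud, against 9.35 in foregut and 16.3 in medial foregut (chromosome 5, 120118333 to 120134730, plus strand). The liver value was above both E8.5 libraries, the dorsal value was below both, and the ventral value lay between them. Tbx3 and Tbx5 lie 112 kb apart on the same strand of chromosome 5, with 1 named locus between them. In liver Tbx3 made up 78.4% of the summed T-box level and in ventral pancreas 72.1%, whereas in foregut and medial foregut Tbx20 led with 45.7% and 52.2%. In dorsal pancreas the family's summed level was 7.46 FPKM, against 178.7 in medial foregut, and Tbx2 led it.

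Of the Gata genes, Gata5 was called lower in all 3 buds and the others in none, although Gata4 was called lower in ventral pancreas after both rescalings and Gata3 there with equal totals. Gata4, a factor of endoderm and heart, stood at 19.7 FPKM in liver, 11.2 in the ventral bud and 13.5 in the dorsal bud, against 46.6 in foregut and 78.0 in medial foregut (chromosome 14, 63817750 to 63891019, minus strand). Its difference from foregut was -1.20 in liver, -1.96 in the ventral bud and -1.71 in the dorsal bud, each short of the size rule. Gata5, which is also expressed in heart and gut, stood at 6.15 FPKM in liver, 4.81 in the ventral bud and 1.76 in the dorsal bud, against 31.8 in foregut and 60.1 in medial foregut (chromosome 2, 180055259 to 180072592, minus strand). The buds lay below both E8.5 libraries, with differences from foregut of -2.20 in liver, -2.50 in the ventral bud and -3.57 in the dorsal bud. Gata6, which the pancreas needs together with Gata4, did not have this order. It stood at 27.0 FPKM in liver, 33.6 in the ventral bud and 11.2 in the dorsal bud, against 25.7 in foregut and 41.1 in medial foregut, so that liver and ventral pancreas lay between the E8.5 values and dorsal pancreas below both. With equal totals liver lay below foregut instead, with a difference of -0.07. The leading Gata gene was Gata6 in liver (46.0% of the summed Gata level) and ventral pancreas (65.8%), and Gata4 in dorsal pancreas (46.5%), foregut (41.6%) and medial foregut (40.6%).

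Gata2 and Gata3, which act in blood, endothelial and neural cells, were low. Gata2 stood at 2.23 FPKM in liver, 0.672 in the ventral bud and 0.811 in the dorsal bud, against 3.17 in foregut and 5.54 in medial foregut. Gata3 stood at 3.68 FPKM in liver, 0.812 in the ventral bud and 1.81 in the dorsal bud, against 4.67 in foregut and 7.40 in medial foregut. Both were highest in medial foregut and, among the buds, in liver. Endothelial markers, 11 of 12 found, summed to 153.9 FPKM in liver, 59.98 in the ventral bud, 83.4 in the dorsal bud, 149 in foregut and 191 in medial foregut, the same order of the buds as in both genes. Leukocyte markers, 6 of 12 found, summed to 90.8 FPKM in liver, 4.67 in the ventral bud, 7.06 in the dorsal bud, 3.91 in foregut and 5.76 in medial foregut, and 3 of them were at 0 in each E8.5 library. Erythroid markers, 5 of 11 found, had another order, with 26.8 FPKM in liver, 145.6 in the ventral bud, 29.8 in the dorsal bud, 4.59 in foregut and 6.27 in medial foregut. The part of endothelial and blood cell RNA in these values was not tested.

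Partners of Gata factors were taken from a list of 14 genes, all of which were found. In liver 3 of them were lower than in both E8.5 libraries (2.22% of all named loci), as were 4 in the ventral bud (1.58%) and 2 in the dorsal bud (1.28%), and 0 were higher. Mef2c, a heart and endothelial factor, stood at 10.1 FPKM in liver, 1.15 in the ventral bud and 9.83 in the dorsal bud, against 52.8 in foregut and 92.5 in medial foregut. Nkx2-5, a heart factor that binds Gata4, stood at 0.0191 FPKM in liver, 0.0358 in the ventral bud and 4.77 in the dorsal bud, against 10.3 in foregut and 20.7 in medial foregut. Hand1, a heart and trophoblast factor, stood at 0.645 FPKM in liver, 1.71 in the ventral bud and 3.54 in the dorsal bud, against 12.2 in foregut and 36.5 in medial foregut. These 3 partners, named from those called lower in a bud than in both E8.5 libraries, were highest in medial foregut, like Gata4, Gata5 and Tbx20. That choice favours a high value at E8.5. Not all of the 14 had this order, and Ldb1 was highest in dorsal pancreas, at 98.8 FPKM. Nkx2-5 is also among the cardiomyocyte markers. All 10 cardiomyocyte markers found were lower in liver and in ventral pancreas than in both E8.5 libraries, and 9 of 10 in dorsal pancreas. The part of heart muscle RNA in the Gata and T-box differences was not tested.

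The promoter windows of Gata5 and Tbx20, members with the same order of libraries, are shown to set their letters side by side. They run from 250 bases before to 50 after the start in RefSeq (GRCm38.p6), 5′ to 3′ on the gene's strand, at chr2:180334630-180334929 for Gata5 and chr9:24774254-24774553 for Tbx20, both on the minus strand.
Gata5: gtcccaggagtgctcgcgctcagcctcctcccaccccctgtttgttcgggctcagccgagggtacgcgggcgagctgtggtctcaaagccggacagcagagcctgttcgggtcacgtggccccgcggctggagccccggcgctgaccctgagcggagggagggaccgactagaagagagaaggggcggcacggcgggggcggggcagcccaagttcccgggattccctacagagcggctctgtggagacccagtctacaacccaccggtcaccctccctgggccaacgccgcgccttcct
Tbx20: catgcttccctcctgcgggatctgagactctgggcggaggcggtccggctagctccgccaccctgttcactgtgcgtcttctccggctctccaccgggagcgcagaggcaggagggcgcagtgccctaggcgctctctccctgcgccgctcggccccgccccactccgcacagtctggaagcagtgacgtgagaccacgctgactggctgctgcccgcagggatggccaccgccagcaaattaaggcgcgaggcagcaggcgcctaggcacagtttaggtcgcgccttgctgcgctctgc
A letter string for each family was searched on both strands. The string for Gata proteins was AGATAA. For forkhead proteins it was TGTTTAC. Sox proteins were given ACAAAG. For T-box proteins the search used AGGTGTG. Neither window held any of the 4 strings, which would be in capitals. Of all 32851 windows of this length, 11.2% held the Gata string, 3.65% the forkhead string, 18.7% the Sox string and 5.84% the T-box string. RefSeq windows were at hand for 26 members (37 windows), of which 2 members held the Gata string, 2 the forkhead string, 7 the Sox string and 0 the T-box string. By window, as in the shares above, the Sox string was in 12 of the 37, several of them windows of Sox6. The Gata string was in 2 windows, the forkhead string in 2 and the T-box string in 0. These windows are rich in G and C, with a median of 65.7% against 52.7% over all windows, while the strings are mostly made of A and T, apart from that of the T-box proteins.

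**Figure D2:**
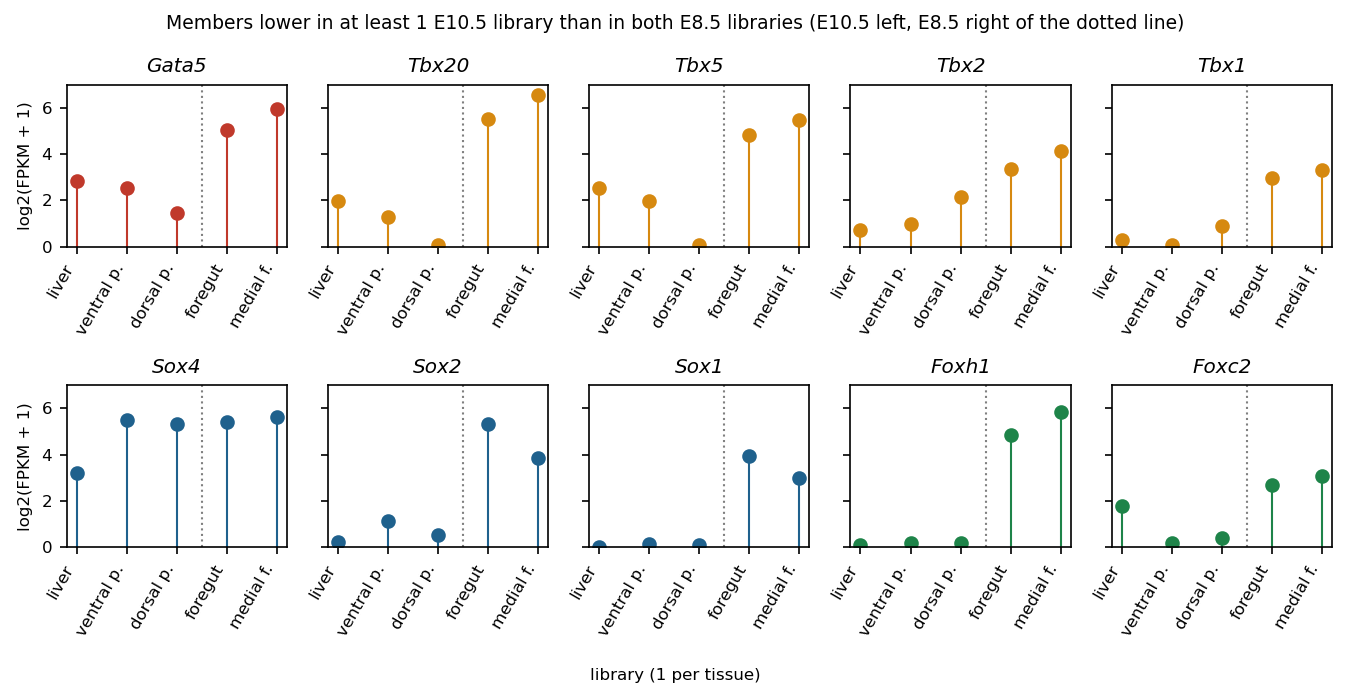
Level of the 10 members that were lower in at least 1 E10.5 library than in both E8.5 libraries, as log2(FPKM + 1) on the vertical axis, with 1 point per library and no error, since there is 1 library per tissue. Tbx5 and Tbx20 descend from liver to ventral to dorsal pancreas, Tbx2 has its highest bud value in dorsal pancreas, and Sox4 is low in liver alone, at 8.31 FPKM.

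Among forkhead genes, Foxh1 was called lower in all 3 buds and Foxc2 in both pancreatic ones. Foxh1, the partner through which Nodal and activin signals reach DNA with Smad proteins, stood at 0.0731 FPKM in liver, 0.132 in the ventral bud and 0.125 in the dorsal bud, against 27.7 in foregut and 56.6 in medial foregut. The gap to foregut was -4.74 in liver, -4.66 in the ventral bud and -4.67 in the dorsal bud. Its locus (chromosome 15, 76473887 to 76500731, minus strand) covers 1557% of the annotated span and overlaps Cyhr1 and Kifc2, so reads of those genes cannot be told apart from those of Foxh1 without strand. Foxc2, a factor of mesenchyme and lymphatic endothelium, stood at 2.43 FPKM in liver, 0.148 in the ventral bud and 0.345 in the dorsal bud, against 5.52 in foregut and 7.53 in medial foregut. Its liver value lay above both pancreatic values. The low members Foxd1 and Foxl2os also had both E8.5 values above all 3 buds, with highest values of 4.01 FPKM in foregut and 1.68 FPKM in medial foregut.

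The Sox B genes, known from neural progenitors, were at most 1.19 FPKM in the buds. Sox2 stood at 0.161 FPKM in liver, 1.19 in the ventral bud and 0.464 in the dorsal bud, against 38.9 in foregut and 13.4 in medial foregut. Sox1, listed at 0 in liver, had 0.113 FPKM in the ventral bud and 0.0754 in the dorsal bud, against 14.6 in foregut and 7.04 in medial foregut. Sox21 stood at 0.0119 FPKM in liver, 0.488 in the ventral bud and 0.449 in the dorsal bud, against 5.97 in foregut and 2.70 in medial foregut. All of them had their highest value in foregut, not in medial foregut. Sox1 and Sox2 were called lower in all 3 buds and Sox21 in none. Neural tube and neural crest markers, 13 of 15 found, summed to 26.2 FPKM in liver, 22.4 in the ventral bud and 71.6 in the dorsal bud. They summed to 124 FPKM in foregut and 51.2 in medial foregut. In liver 12 of the 13 were below foregut and 11 below medial foregut, in the ventral bud 11 and 9, and in the dorsal bud 10 and 7. The part of neural RNA in the Sox B differences was not tested. Sox2ot, an RNA transcribed across Sox2, stood at 0.00468 FPKM in liver, 0.104 in the ventral bud and 0.00447 in the dorsal bud, against 5.20 in foregut and 1.303 in medial foregut. Its order of E8.5 libraries was that of Sox2, but both values rest on 1 interval (chromosome 3, 34459166 to 34576987, plus strand).

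Sox4, a Sox C gene of progenitors that the endocrine pancreas needs, was low in liver only. It stood at 8.31 FPKM in liver, 44.1 in the ventral bud and 39.7 in the dorsal bud, against 42.0 in foregut and 48.9 in medial foregut. It was called lower in liver than in both E8.5 libraries, and the liver value lay apart from the other 4, which spanned less than 10 FPKM among themselves. Sox4 is placed by the table on the strand opposite to its annotation (chromosome 13, 29040353 to 29052757, plus strand), so its value may hold reads of an antisense RNA. Sox12, of the same subgroup, was more even, at 15.2 FPKM in liver, 17.3 in the ventral bud and 26.4 in the dorsal bud, against 16.8 in foregut and 16.4 in medial foregut.

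The next comparison set liver against both pancreatic buds. Sox4 was the only member called lower in liver (1.65% of all named loci were lower), and 0 members were higher (1.04%). Its difference was -2.27 from ventral and -2.13 from dorsal pancreas, and with libraries rescaled by median ratios the smaller difference was -1.92, short of the rule. At a size of 1 in place of 2, Sox13 and Foxo4 joined Sox4 on the lower side, so 3 members were lower (6.7% of all named loci), and Foxa1 and Tbx3 were higher (3.11%). As 3 and 2 of the 39 members, these counts were not far from the shares of all named loci. Of all 12375 named loci, 7561 were below ventral and 7558 below dorsal pancreas. Among the families, 10 of 10 Sox members were below ventral pancreas and 9 of 10 below dorsal pancreas, with medians of -0.67 and -0.64, while 4 of 5 Gata members were above ventral and 5 of 5 above dorsal pancreas, with medians of 0.76 and 0.84. Of the T-box members 4 of 5 were above ventral and 3 of 5 above dorsal pancreas, with medians of 0.60 and 1.91. Over all named loci the medians were -0.17 and -0.16. With each library rescaled to the same total, 10 of 10 Sox members were below dorsal pancreas, and with median ratios 9 of 10 were below ventral pancreas, while no Gata or T-box count differed. Of the cardiomyocyte markers, 8 of 10 were above ventral and 9 of 10 above dorsal pancreas, and 6 of 6 leukocyte markers found were above both. Of the endothelial markers 10 of 11 were above each, and of the hepatoblast markers 10 of 11 were above ventral and 11 of 11 above dorsal pancreas. Epithelial markers ran the other way, with 12 of 12 below ventral and 11 of 12 below dorsal pancreas. The part of these cell types in the Gata and T-box differences was not tested.

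Sox13, of the Sox D group, whose proteins lack an activation domain of their own, stood at 14.3 FPKM in liver, 58.1 in the ventral bud and 34.3 in the dorsal bud, against 25.6 in foregut and 17.9 in medial foregut (chromosome 1, 135278854 to 135321066, minus strand). It led the Sox genes of ventral pancreas with 44.7% of their summed level, and both pancreatic values were above both E8.5 values. Sox5, of the same group, stood at 2.87 FPKM in liver, 5.16 in the ventral bud and 3.37 in the dorsal bud, against 1.25 in foregut and 0.886 in medial foregut. Sox6, the third of the group, ranged from 0.711 FPKM in liver to 4.33 FPKM in dorsal pancreas. All of them were lower in liver than in both pancreatic libraries. Sox8, a Sox E gene, stood at 0.588 FPKM in liver, 1.88 in the ventral bud and 3.25 in the dorsal bud, against 0.551 in foregut and 0.361 in medial foregut. Epithelial markers, 12 of 12 found, summed to 415 FPKM in liver, 1470 in the ventral bud, 812 in the dorsal bud, 791 in foregut and 1067 in medial foregut, which puts the buds in the order of Sox13. The part of epithelial RNA in the Sox differences was not tested.

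Foxo4, one of the Foxo genes whose proteins insulin and growth factors keep out of the nucleus, stood at 9.26 FPKM in liver, 27.4 in the ventral bud and 27.2 in the dorsal bud, against 20.5 in foregut and 30.4 in medial foregut. It was lowest in liver, as was Foxo3, at 4.81 FPKM in liver, 10.4 in the ventral bud and 8.33 in the dorsal bud, against 8.11 in foregut and 8.51 in medial foregut. Foxo1, through which insulin acts on liver genes, had another order, at 6.80 FPKM in liver, 6.13 in the ventral bud and 6.55 in the dorsal bud, against 3.90 in foregut and 3.34 in medial foregut. All 3 buds stood above both E8.5 libraries. Foxo6 stayed between 0.562 and 1.40 FPKM, on a locus with 5.36% of the annotated span.

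The Foxa genes, which prepare endoderm for liver and pancreas, had different orders among the buds. Foxa1 stood at 28.2 FPKM in liver, 12.8 in the ventral bud and 6.40 in the dorsal bud, against 20.2 in foregut and 18.6 in medial foregut. Foxa2 stood at 24.0 FPKM in liver, 45.7 in the ventral bud and 33.1 in the dorsal bud, against 18.2 in foregut and 12.4 in medial foregut (chromosome 2, 147868620 to 147875265, minus strand). Foxa1 was thus highest in liver and lowest in dorsal pancreas, whereas Foxa2 was highest in ventral pancreas and lowest, among the buds, in liver. Liver minus ventral pancreas was 1.08 and liver minus dorsal pancreas was 1.98 in Foxa1, and Foxa2 was called in neither direction. Levels of the 2 genes can be set side by side per length, although the locus of Foxa1 (chromosome 12, 58641047 to 58838888, minus strand) is far wider than the gene, at 3146% of the annotated span, and overlaps 4921506M07Rik on the other strand.

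Windows of both Foxa genes are shown because the genes differ in order among the buds and the windows hold strings of these families. They are at chr12:57546062-57546361 for Foxa1 and chr2:148045415-148045714 for Foxa2 (RefSeq, GRCm38.p6, minus strand, 5′ to 3′), with capitals for each string found on either strand.
Foxa1: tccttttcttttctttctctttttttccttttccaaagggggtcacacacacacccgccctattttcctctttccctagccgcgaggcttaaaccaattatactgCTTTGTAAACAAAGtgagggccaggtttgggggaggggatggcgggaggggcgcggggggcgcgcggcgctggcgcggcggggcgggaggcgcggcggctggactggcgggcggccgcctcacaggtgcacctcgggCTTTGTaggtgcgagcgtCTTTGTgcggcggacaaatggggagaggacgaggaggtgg
Foxa2: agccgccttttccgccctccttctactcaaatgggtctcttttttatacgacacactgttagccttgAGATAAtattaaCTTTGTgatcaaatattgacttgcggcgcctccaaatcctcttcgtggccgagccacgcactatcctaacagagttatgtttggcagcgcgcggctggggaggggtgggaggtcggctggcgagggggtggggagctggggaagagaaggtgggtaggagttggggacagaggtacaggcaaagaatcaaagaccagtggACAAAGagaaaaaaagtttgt
In Foxa1 a forkhead string of the reverse strand, seen in the printed strand as GTAAACA, begins 141 bases before the start. It overlaps a Sox string on each side, which begin 145 and 137 bases before the start. The other Sox strings begin 8 bases before the start and 11 bases into the transcript. In Foxa2 a Gata string begins 183 bases before the start and Sox strings 171 bases before it and 30 bases into the transcript. The shown Foxa2 window is 1 of 3, and the other 2 held none of the strings. A match is a string of letters and says nothing of binding.

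Windows of Sox2 and Sox13 are given because Sox2 was lower in the pancreatic libraries than at E8.5 and Sox13 was higher. They are at chr3:34649745-34650044 on the plus strand for Sox2 and chr1:133424163-133424462 on the minus strand for Sox13 (RefSeq, GRCm38.p6, 5′ to 3′).
Sox2: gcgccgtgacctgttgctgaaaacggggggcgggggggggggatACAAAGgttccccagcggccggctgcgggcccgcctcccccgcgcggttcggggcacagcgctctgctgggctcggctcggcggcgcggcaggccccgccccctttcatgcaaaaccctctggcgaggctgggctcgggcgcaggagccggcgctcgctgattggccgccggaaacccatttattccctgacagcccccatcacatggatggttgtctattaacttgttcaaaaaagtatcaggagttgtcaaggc
Sox13: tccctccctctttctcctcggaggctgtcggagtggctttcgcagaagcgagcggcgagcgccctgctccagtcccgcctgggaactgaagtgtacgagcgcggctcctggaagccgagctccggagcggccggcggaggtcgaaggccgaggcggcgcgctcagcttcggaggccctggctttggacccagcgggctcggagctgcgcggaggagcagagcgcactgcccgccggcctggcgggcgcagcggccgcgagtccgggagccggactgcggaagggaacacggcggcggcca
Sox2 held 1 Sox string, 206 bases before the start. The bases just after that start were not found in a GENCODE M21 transcript of Sox2, unlike those of the other windows shown. The position thus rests on the RefSeq start alone. Sox13 held none of the 4 strings, and its window was 73.3% G and C, against 66.3% in Sox2.

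**Figure D3:**
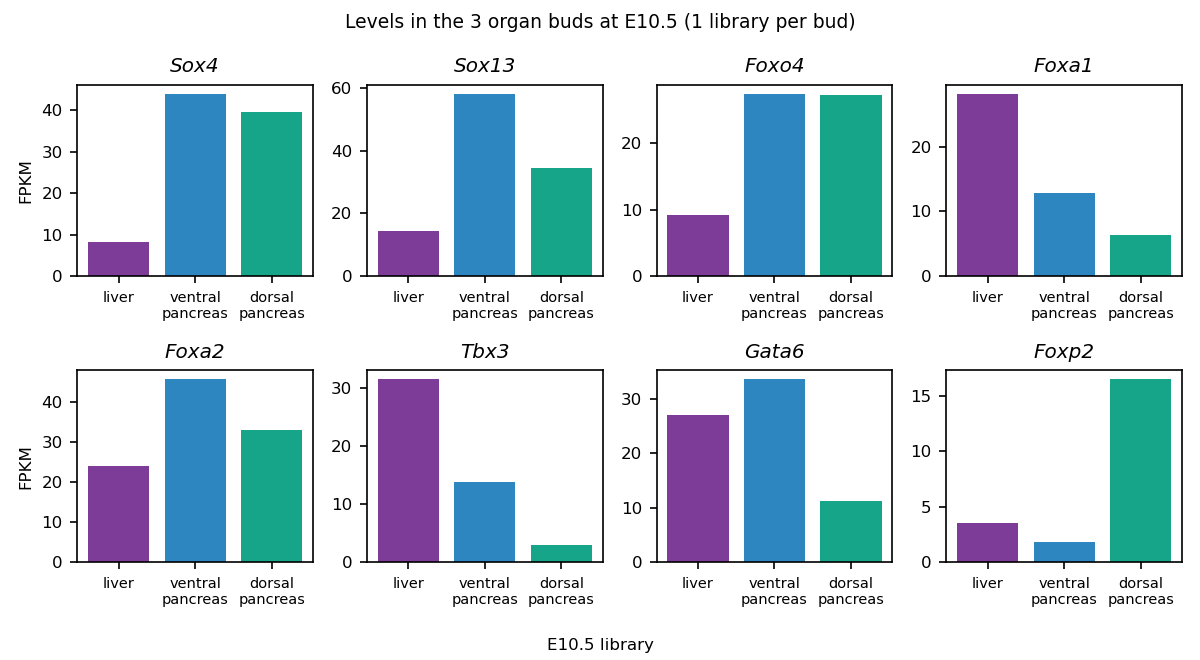
FPKM of 8 members in the 3 E10.5 libraries, with 1 bar per library, no error bar, and an axis of its own from 0 for each gene. Sox4, Sox13 and Foxo4 have their lowest bar in liver, Foxa1 and Tbx3 their highest, Gata6 its lowest in dorsal pancreas and Foxp2 its highest there, at 16.5 FPKM.

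Ventral and dorsal pancreas arise on opposite sides of the gut tube, and few members differed between them. The median difference was 0.04, against 0.01 over all named loci. Foxp2 was the only member called, lower in ventral pancreas (0.768% of all named loci were lower), and 0 were higher (0.913%). Foxp2, a forkhead gene of nerve cells and lung, had a level of 1.85 FPKM in the ventral and 16.5 in the dorsal library, against 3.49 in liver, 2.51 in foregut and 2.62 in medial foregut (chromosome 6, 14851042 to 15391882, plus strand). The dorsal value lay above the other 4, and it was also the 1 member called higher in dorsal pancreas than in both E8.5 libraries, with differences of 2.32 and 2.27. Rescaled to equal totals, 1 member (Tbx5) was higher and 2 were lower (Foxp2 and Foxf2), so 33.3% of calls were on the higher side. Foxf2, a gene of gut mesenchyme, had 0.140 FPKM in the ventral and 4.86 in the dorsal library, just under the level of 5 FPKM.

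At the size of 1, Gata6 and Tbx3 were higher in ventral pancreas (3.28% of all named loci) and Foxp2 was lower (2.47%). Gata6 differed by 1.503 and Tbx3 by 1.88, and Tbx3 passed 2 with a pseudocount of 0.1 FPKM. Tbx5 was 2.88 FPKM in ventral and 0.0657 in dorsal pancreas and Foxa1 was 12.8 FPKM in the ventral and 6.40 in the dorsal bud, so these genes had the same order as Tbx3 from liver through ventral to dorsal pancreas. The summed level of hepatoblast markers ran in that order as well, with 2445 FPKM in ventral and 575 in dorsal pancreas, mostly from Dlk1 (1718 and 485 FPKM). Of the 11 found, 10 were higher in ventral than in dorsal pancreas. Gut mesenchyme markers, 15 of 15 found, summed to 65.2 FPKM in ventral and 245 in dorsal pancreas, and 11 were lower in ventral pancreas. Foxp2 and Foxf2 were also lower in ventral than in dorsal pancreas. In the other libraries the sums were 241 FPKM in liver, 761 in foregut and 1260 in medial foregut. Acta2 alone gave 133 FPKM in liver, 635 in foregut and 1042 in medial foregut, against 2.78 in ventral and 0.923 in dorsal pancreas. Foxp2 and Foxf2 did not have the order of the sums, with 3.49 and 0.0144 FPKM in liver and 2.62 and 0.669 in medial foregut. Barx1 and Nkx3-2 of the same list were highest in dorsal pancreas, like Foxp2 and Foxf2, at 89.3 and 9.57 FPKM. In liver they had 0.234 and 0.0145 FPKM and in medial foregut 0.855 and 0.0826. Of the 15 markers, 4 were higher in ventral than in dorsal pancreas. The part of any of these cell types in the differences was not tested.

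Foregut and medial foregut differed little, and 0 members were called at the size of 2 in either direction (0.0404% of all named loci were higher in foregut and 0.00808% lower). At the size of 1, Sox2 and Sox2ot were higher in foregut (0.469% of all named loci) and Tbx20 and Foxh1 were lower (0.275%). Of the 39 members 22 were lower in foregut, by any amount (49.4% of all named loci). The families divided by direction. All 5 Gata and all 5 T-box members were lower in foregut than in medial foregut, with medians of -0.65 and -0.75, and 9 of 10 Sox members were higher, with a median of 0.37, where the median of all named loci was 0.00. The forkhead genes had 8 higher and 11 lower. The counts for Gata, T-box and Sox members were the same after both rescalings, while the forkhead count became 13 higher and 6 lower with equal totals.

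Single genes differed in size. Among the Sox genes the Sox B members differed most, by 1.47 in Sox2, 0.95 in Sox1 and 0.91 in Sox21, along with Sox2ot at 1.43, which has the interval of Sox2, and Sox4 was the one Sox member lower in foregut, at -0.22. Among the T-box genes the differences ran from -0.34 in Tbx1 to -1.05 in Tbx20, and among the Gata genes from -0.57 in Gata3 to -0.90 in Gata5. Neural tube and neural crest markers, 13 of 15 found, summed to 124 FPKM in foregut and 51.2 in medial foregut, and 12 of 13 were higher in foregut. Cardiomyocyte markers summed to 5319 FPKM in foregut and 9121 in medial foregut, and 10 of 10 were lower in foregut. Neural and cardiac markers thus differed in the directions of the Sox B genes and of the Gata and T-box genes, but other lists shared these directions. Gut mesenchyme (14 of 15), epithelial (11 of 12), endothelial (10 of 11) and mesothelium and septum transversum (7 of 8) markers were mostly lower in foregut. Hepatoblast (9 of 11) and pancreatic progenitor (7 of 8) markers were mostly higher in foregut. The part of any of these cell types in the differences was not tested.

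**Figure D4:**
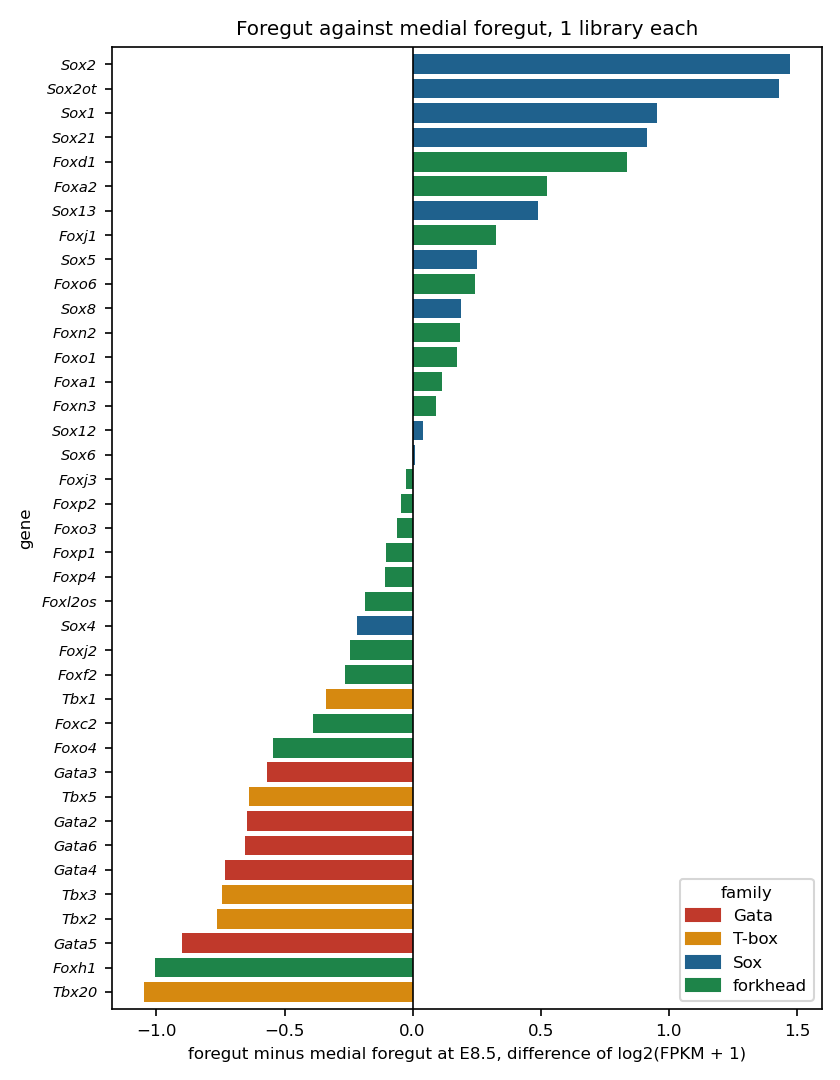
Difference of foregut minus medial foregut at E8.5 in log2(FPKM + 1) for each of the 39 members, 1 library each, with bars coloured by family; bars to the right are higher in foregut. Gata and T-box bars all point left and reach -1.05 in Tbx20, and the Sox B genes point right, up to 1.47 in Sox2.

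Among the remaining forkhead genes, Foxp4 and Foxp1 had a span of under 1 across the libraries. Foxp4, expressed in lung and gut epithelium, was the most abundant member in every library except medial foregut. It stood at 69.7 FPKM in liver, 76.3 in the ventral bud and 73.8 in the dorsal bud, against 49.7 in foregut and 53.7 in medial foregut. Its relative Foxp1 stood at 13.6 FPKM in liver, 23.8 in the ventral bud and 23.6 in the dorsal bud, against 11.6 in foregut and 12.5 in medial foregut. Both stood higher in all 3 buds than in both E8.5 libraries, by less than the size rule. A span of under 1 between lowest and highest library was found in 10 members, namely Foxj2, Foxj3, Foxn2, Foxn3, Foxo1, Foxo3, Foxo6, Foxp1, Foxp4 and Sox12. Foxj3 stood at 12.8 FPKM in liver, 15.5 in the ventral bud and 16.1 in the dorsal bud, against 13.6 in foregut and 13.8 in medial foregut. Foxn2 stood at 10.8 FPKM in liver, 6.82 in the ventral bud and 8.25 in the dorsal bud, against 8.18 in foregut and 7.09 in medial foregut, so its highest value was in liver. Foxn3 stood at 6.80 FPKM in liver, 8.21 in the ventral bud and 7.98 in the dorsal bud, against 6.995 in foregut and 6.50 in medial foregut. Foxj2 lay between 2.56 and 4.69 FPKM. None of these 4 genes was called in any comparison. Foxj1, the master factor of motile cilia, stood at 3.19 FPKM in liver, 2.29 in the ventral bud and 0.645 in the dorsal bud, against 1.15 in foregut and 0.713 in medial foregut, a span of 1.35 on the log2 scale.

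Of 21 listed partners of forkhead, Sox and T-box proteins, 14 were found. Of these 2 were lower in liver than in both E8.5 libraries (2.22% of all named loci), 0 in the ventral bud (1.58%) and 1 in the dorsal bud (1.28%), and 0 were higher in any bud. Pou5f1, which binds DNA together with Sox2, stood at 0.0465 FPKM in liver, 1.77 in the ventral bud and 0.0195 in the dorsal bud, against 5.39 in foregut and 8.55 in medial foregut. Pax6, another partner of Sox2, stood at 1.46 FPKM in liver, 7.24 in the ventral bud and 26.2 in the dorsal bud, against 42.6 in foregut and 20.0 in medial foregut. Sox2 was at most 1.19 FPKM in the buds, whereas Pax6 in dorsal pancreas was above its level in medial foregut.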

How the data were processed

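Poly(A) RNA was sequenced in 1 paired-end library per tissue, per the labels' protocols, with random hexamer priming and no strand marking described. The authors deposited a table of FPKM values per locus, per the file headers. TopHat 1.33, Cufflinks 1.3.0 and mm9 appear in the submitters' processing notes, without their roles, the annotation or any scaling between libraries. Columns were matched to tissues by the column name in each sample's description. The 1678 loci with no name entered no comparison.

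Python 3.11.15 with pandas 2.3.3 computed differences of log2(FPKM + 1) over all 12375 named loci. With 1 library per tissue there is no test and no p-value, and how often the size rule errs in these data was not tested. Coordinates are those of the table (mm9). GENCODE M21, on GRCm38, gave strand, span and type by name, and transcripts against which the shown promoter windows were checked. By name, 1 member lay on the other strand, 2 covered under 30% of the annotated span and 10 over 150%. Every member that reached 5 FPKM is named with its 5 values, the others with a range or highest value. Of listed genes that are no member, at most 4 of a list are named. The alternatives were other pseudocounts, a smaller size, no filter on low values, rescaled libraries and leaving out doubtful loci. The members and lists were chosen with earlier results of these data known.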

Additional observations from a re-analysis of the deposited data

Results flagged for a closer look

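Tbx3 differed in opposite directions from the E8.5 libraries in 2 of the buds, and this difference between buds was not tested. In liver it was higher than in both E8.5 libraries, by 0.90 on the log2 scale at the smaller of the 2 differences. In dorsal pancreas it was lower than in both, by -1.37. The other members that reached 5 FPKM did not show opposite differences of at least 0.5 against both E8.5 libraries.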

How the results depend on the processing

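Of the 29 calls of members, 29 were kept with a pseudocount of 0.1 FPKM, 29 with equal totals, 28 with median ratios and 9 with a pseudocount of 5 FPKM, and 0 reversed direction. A smaller pseudocount, a smaller size or no filter cannot lose a call, and no pseudocount can reverse the direction of one. The pseudocount of 5 FPKM left 0 members lower in liver than in pancreas, 0 lower in ventral than in dorsal pancreas, 2 lower in liver than at E8.5 (Tbx20 and Foxh1), 3 lower in ventral pancreas than at E8.5 (Tbx5, Tbx20 and Foxh1), 4 lower in dorsal pancreas than at E8.5 (with Gata5) and 0 higher there. A pseudocount of 0.1 FPKM gave 1 member higher in ventral than in dorsal pancreas (Tbx3) and 14 lower in ventral pancreas than at E8.5. A size of 1 gave 2 higher and 3 lower in liver than in pancreas, 2 higher in ventral than in dorsal pancreas, 2 higher and 2 lower in foregut than in medial foregut, 3 higher and 14 lower in ventral pancreas than at E8.5, and 17 lower in dorsal pancreas than at E8.5. With no filter on low values 2 members (Foxp2 and Foxf2) were below dorsal pancreas in ventral pancreas. Both rescalings added Gata4, and equal totals Gata3, to the members lower in ventral pancreas than at E8.5. With equal totals 1 member was higher (Tbx5) and 2 were lower (Foxp2 and Foxf2) in ventral than in dorsal pancreas. Equal totals also gave 2 higher in dorsal pancreas than at E8.5 (Foxp2 and Foxf2). Median ratios left 0 lower in liver than in pancreas, with Sox4 at -1.92. The cause of these changes was not tested. Leaving out doubtful loci removed Sox4, so 0 members were lower in liver than in pancreas. Leaving out loci over 150% of the annotated span, which was added once the data had been seen, gave 0 there. Against E8.5 it gave 4 lower in liver, 5 in the ventral and 4 in the dorsal library, since fewer loci were compared. No paired analysis was possible because there is 1 library per tissue, and for the same reason no library could be left out. Depth in reads is unknown, so no interval or floor can be given.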

Other observations

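The locus Tbx6,Ypel3, left out because its reads cannot be assigned to either gene, had a level of 10.7 FPKM in liver, 30.1 in the ventral bud and 28.8 in the dorsal bud, against 9.18 in foregut and 13.2 in medial foregut (chromosome 7, 133920479 to 133936357).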
